A study of Mus musculus with 36 samples.

Results

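The long noncoding genes that carry small nucleolar RNAs (snoRNAs) in their introns were measured in mouse embryonic stem (mES) cells that had lost METTL3, YTHDC1 or ZCCHC8, with metabolic labelling of RNA (SLAM-seq). The 9 symbols considered were Gas5, Snhg1, Snhg3, Snhg5, Snhg6, Snhg8, Snhg12, Zfas1 and Dancr, and a gene was kept where all 6 deposited tables listed it. This left 3 genes, Snhg6, Snhg12 and Dancr, in 4 of the 18419 gene rows common to the tables, because Dancr is held in 2 rows. The other 6 symbols were not analysed here.

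All 36 libraries came from a Cast x 129S mES cell background in which a TetOn promoter replaces the endogenous Xist promoter on the 129S allele and Xist carries a Bgl stem loop. In each of 3 degron lines, 1 clone each, METTL3 (12D clone), YTHDC1 (Y12H clone) or ZCCHC8 (Z12H clone) was fused to the FKBP12 F36V tag, so that the small molecule dTAG-13 leads to its degradation. The dTAG arm was given dTAG-13 2 h ahead of 1 µg/ml doxycycline, and the Ctrl arm was not. After 20 h of doxycycline, both arms were pulsed for 4 h with 500 µM 4-thiouridine (4sU) and collected after 0, 90 or 180 min in 50 mM uridine, the chase. Both arms were therefore tagged, induced for Xist and labelled alike, and each of the 18 combinations of line, arm and chase had 2 replicates. In SLAM-seq, RNA made during the 4sU pulse is read with T-to-C mismatches, from which GRAND-SLAM estimates the new-to-total ratio, the share of a gene's RNA that is labelled.

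A snoRNA host gene is transcribed and spliced, and the snoRNA is trimmed out of the excised intron. Box C/D snoRNAs guide 2′-O-methylation and box H/ACA snoRNAs guide pseudouridylation, mainly of ribosomal RNA, and their proteins bind the boxes that define each class. What remains of the host, the spliced exons, is often exported and then degraded through nonsense-mediated decay, so host transcripts are known for short lives. In the nucleus, METTL3 writes N6-methyladenosine (m6A), YTHDC1 reads it, and ZCCHC8 is the scaffold of the NEXT complex, which delivers unprocessed nuclear RNA to the exosome and has a known part in removing snoRNA host introns and 3′ extended snoRNAs.

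Each analysed host carries at least 1 snoRNA on its own strand in GENCODE M21 (mm10), and 1 per host is shown because the snoRNAs set how the host's reads can be read. Dancr (chromosome 5, 74093060 to 74095406, plus strand) carries Snora26, which lies within an exon in 3 of the 4 annotated Dancr transcripts. Snhg6 (chromosome 1, 9941959 to 9944118, minus strand) carries Snord87, which lies in no exon of its 5 annotated transcripts. Snhg12 (chromosome 4, 132308623 to 132311024, plus strand) carries Snora16a, Snora44, Snora61 and Snord99. Of its 10 transcripts, Snora61 lies within an exon in 4, Snord99 in 3, and Snora16a and Snora44 in 2 each. No snoRNA has a row of its own among the genes listed, so no level of a mature snoRNA was measured. The sequences below are 5′ to 3′ on the strand of the host, with the C box (TGATGA) and D box (CTGA) in capitals for Snord genes and the ACA box, 3 bases before the end, in capitals for the Snora gene.
Snora26 (chr5:74093530-74093650): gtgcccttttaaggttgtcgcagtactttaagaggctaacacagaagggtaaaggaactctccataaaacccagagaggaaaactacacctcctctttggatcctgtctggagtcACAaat
Snord87 (chr1:9942463-9942549): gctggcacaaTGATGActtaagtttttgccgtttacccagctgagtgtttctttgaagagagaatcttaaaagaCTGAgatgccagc
Snord99 (chr4:132310691-132310764): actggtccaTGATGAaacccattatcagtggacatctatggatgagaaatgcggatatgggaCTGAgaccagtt
Among annotated Snord genes, 75.5% of 98 hold TGATGA with CTGA after it, and 83.3% of 42 Snora genes hold ACA at that place. Of the Snora genes of Snhg12, whose sequences are not shown, Snora16a and Snora61 hold ACA there and Snora44 does not.

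The 2 Dancr rows overlap. The long row (ENSMUSG00000106943) has the length of the whole span, 2347 bases, and the short row (ENSMUSG00000053656) has a length of 1036 bases, that of a 2-exon transcript that keeps the intron with Snora26. The short row's identifier is not in M21, so its position was inferred from that length. The long row held at least as many reads as the short row in all 36 libraries, so both are described and are not independent. Snhg6 (ENSMUSG00000098234) and Snhg12 (ENSMUSG00000086290) have 1 row each. Use of strand in counting was not stated, and Snhg6 overlaps the other-strand gene Mcmdc2 by 127 bases and Dancr the other-strand model Gm43416 by 92 bases. Mcmdc2 was at a mean of 2.83 to 3.53 CPM (read counts scaled to library size) in the 3 lines and passed no test of dTAG against Ctrl, with adjusted p from 0.127 to 0.996, and Gm43416 is not among the listed genes.

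Depth was 5274684 to 18652000 reads per library and lowest in the ZCCHC8 line. Markers of mES cells were present in every library, with a summed level of 2220 to 3817 CPM for the 7 genes, none of which was under 1 CPM on average in any line and arm. With depletion in the ZCCHC8 line, 3 of the 7 rose (42.9%) and none fell. Over all genes 39.6% were called in that test, 20.1% as higher and 19.5% as lower. The 10 markers of the fibroblast feeders summed to 29.4 to 64.8 CPM, at 48.8 to 64.3 CPM in Ctrl and 51.1 to 59.0 CPM in dTAG libraries of the ZCCHC8 line, with 4 or 5 of the 10 under 1 CPM on average. In the METTL3 and YTHDC1 lines, replicate 1 stood apart from replicate 2 for the hosts. Snhg6 averaged 50.1 ± 9.87 CPM in replicate 1 and 25.2 ± 4.95 CPM in replicate 2 of the METTL3 line (SD, n = 6 libraries), and 39.2 ± 5.98 against 25.2 ± 3.20 CPM in the YTHDC1 line. In the ZCCHC8 line the same means were 24.4 ± 3.01 and 25.0 ± 4.52 CPM. Replicate numbers paired the libraries, as described for the processing, and values from fits with the replicate as a block are therefore given wherever they change the call of a host row, and as counts for the gene lists.

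Snhg12 was the most abundant host per length, and this order was the same in all 3 lines. In Ctrl libraries of the METTL3, YTHDC1 and ZCCHC8 lines its mean level was 139, 137 and 117 CPM per kilobase, above 96.9%, 96.7% and 96.1% of the genes tested. Snhg6 averaged 44.4, 41.7 and 29.0 CPM per kilobase. The short Dancr row, at 38.4, 37.1 and 23.7 CPM per kilobase, came next, and the long row, which includes bases that the spliced transcript lacks, was at 22.5, 22.8 and 16.6 CPM per kilobase. Snhg6 and the short Dancr row were not separated, because their libraries overlapped in every line. The median gene was at 7.13 to 7.67 CPM per kilobase.

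**Figure D1:**
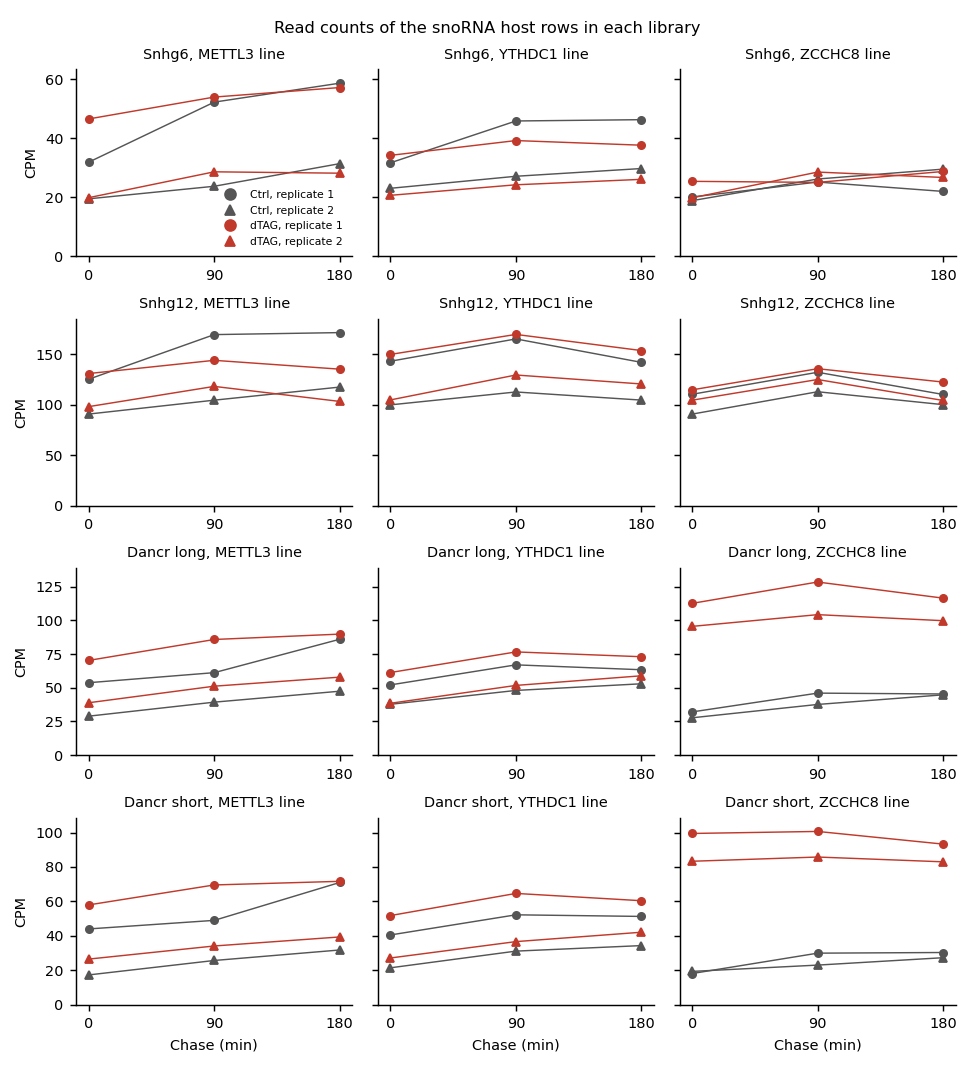
Read counts of each host row as CPM (y axis) over the chase in min (x axis), 1 panel per row and line, with grey for Ctrl and red for dTAG, circles for replicate 1 and triangles for replicate 2. The long Dancr row was at 95.6 to 129 CPM in dTAG and 27.7 to 46.0 CPM in Ctrl libraries of the ZCCHC8 line, and the short row was at 83.0 to 101 CPM in dTAG and 18.03 to 30.3 CPM in Ctrl libraries of that line. In the other panels the ranges of the arms overlap.

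Depletion of ZCCHC8 raised Dancr, while the estimates for Snhg6 and Snhg12 were close to 0. The long Dancr row, the RNA of a gene named for opposing differentiation, was at 32.1, 46.0 and 45.4 CPM in Ctrl replicate 1 after 0, 90 and 180 min and at 27.7, 37.6 and 44.8 CPM in Ctrl replicate 2. In dTAG libraries it was at 113, 129 and 117 CPM in replicate 1 and at 95.6, 104 and 99.8 CPM in replicate 2. The highest Ctrl library was below the lowest dTAG library, and dTAG was higher in 6 of 6 pairs. The fold change was 2.82 (log2 1.49, SE 0.09, edgeR adjusted p 3.71e-09), the 336th highest of 13962 genes tested. The short row went from a median of 25.1 CPM (18.03 to 30.3) in Ctrl to 89.5 CPM (83.0 to 101) in dTAG libraries, 3.67-fold higher (log2 1.87, SE 0.10, adjusted p 7.06e-10). Of the 4 rows 2 were called, both of Dancr and overlapping, against 39.6% of all genes in this line, so a call by itself is common there. The size of the change is what sets Dancr apart among the 3 hosts analysed. Of 5 other noncoding hosts tested, 4 also rose in this line, among them Snhg20 by 1.17 and the little expressed Snhg18 by 1.19 on the log2 scale.

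Snhg12 and Snhg6 were close to their Ctrl level without ZCCHC8. Snhg12, the host of 3 H/ACA snoRNAs and 1 C/D snoRNA, was at 104 to 136 CPM in dTAG (median 119) and 90.8 to 132 CPM in Ctrl libraries (median 110). The groups overlapped, and the log2 fold change of 0.11 (SE 0.06) did not pass (adjusted p 0.141). With the replicate as a block, dTAG libraries being higher in 6 of 6 pairs, the same log2 fold change of 0.11 (SE 0.04) passed (adjusted p 0.026), a fit in which 45.9% of genes were called. Without replicate 1 the log2 fold change was 0.14, from 1 replicate of the line. Snhg6, the host of Snord87, was at 19.8 to 28.8 CPM in dTAG (median 26.1) and 18.9 to 29.6 CPM in Ctrl libraries (median 23.6), with a log2 fold change of 0.14 (SE 0.08, adjusted p 0.205, higher in 4 of 6 pairs). In bulk RNA, a change in the number of cells that express a gene cannot be told apart from a change in RNA per cell.

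**Figure D2:**
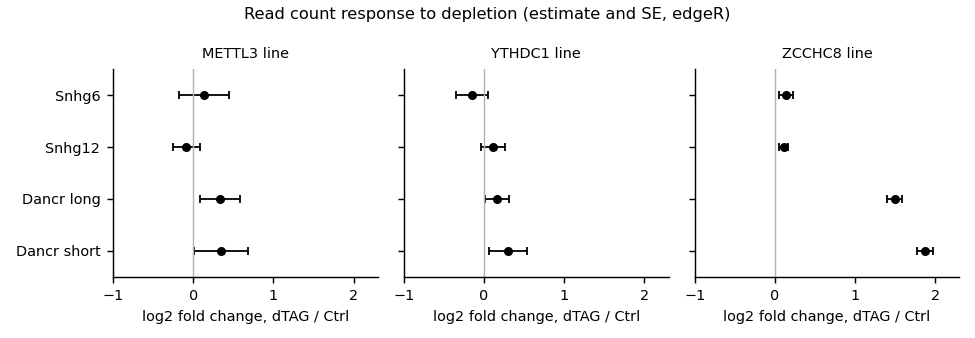
Log2 fold change of read counts, dTAG over Ctrl (x axis), for the 4 host rows (y axis) in each line, with points for the edgeR estimate and bars for its SE. Both Dancr rows sit at 1.49 and 1.87 in the ZCCHC8 line, and all other estimates lie between -0.15 and 0.35.

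In the METTL3 line none of the 4 rows passed in the fit without the replicate, where 20.1% of genes were called. The long Dancr row was at a median of 50.6 CPM (28.9 to 86.0) in Ctrl and 64.1 CPM (38.9 to 89.8) in dTAG libraries, with a log2 fold change of 0.33 (SE 0.25, adjusted p 0.385). These ranges overlap, but dTAG was higher in 6 of 6 pairs of the same chase time and replicate, by 1.04 to 1.40 times. With the replicate as a block the change was 0.34 (SE 0.08, adjusted p 0.00209), and that of the short row was 0.37 (SE 0.09, adjusted p 0.00236), in a fit that called 48.5% of genes. The long row was at 0.36 without replicate 1 and at 0.34 without replicate 2, each from 1 replicate of the line. With the chase libraries summed within arm and replicate, its edgeR log2 fold change was 0.30 (SE 0.40, adjusted p 0.896). That fit called 0 of 15894 genes. Snhg6 was at medians of 31.7 CPM (Ctrl) and 37.6 CPM (dTAG), with a log2 fold change of 0.14 (SE 0.31, adjusted p 0.812). Snhg12 was at 122 and 125 CPM, with a log2 fold change of -0.09 (SE 0.17, adjusted p 0.774).

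In the YTHDC1 line none of the 4 rows passed either, where 5.25% of genes were called. The long Dancr row was at a median of 52.5 CPM (37.7 to 67.0) in Ctrl and 60.1 CPM (38.5 to 76.6) in dTAG libraries, with a log2 fold change of 0.16 (SE 0.15, adjusted p 0.659), and the short row had 0.30 (SE 0.23, adjusted p 0.578). Both rows were higher in dTAG in 6 of 6 pairs. With the replicate as a block the long row changed by 0.16 (SE 0.06, adjusted p 0.0424) and the short row by 0.30 (SE 0.06, adjusted p 0.00123), with 27.3% of genes called. Snhg6 had a log2 fold change of -0.15 (SE 0.20, adjusted p 0.78), and Snhg12 had 0.11 (SE 0.15, adjusted p 0.791), also higher in 6 of 6 pairs. Without replicate 1, Snhg12 was at 0.16, the short Dancr row at 0.28 and the long row at 0.10. Without replicate 2, the short row was at 0.29, the long row at 0.20 and Snhg12 at 0.06. Each of these fits rests on 1 replicate of the line. With the chase libraries summed within arm and replicate, 0 of 15512 genes were called.

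The Dancr response was larger in the ZCCHC8 line than in either other line. The long row's log2 fold change exceeded that of the YTHDC1 line by 1.29 (SE 0.27, adjusted p 0.00136) and that of the METTL3 line by 1.15 (SE 0.27, adjusted p 0.00231), in edgeR fits over 36 libraries. The short row exceeded them by 1.55 (SE 0.38, adjusted p 0.00541) and 1.52 (SE 0.38, adjusted p 0.00372). Of all genes, 14.4% and 23.7% were called in these comparisons. Between the METTL3 and YTHDC1 lines the long row differed by 0.14 (SE 0.27, adjusted p 0.773), and 20.6% of genes were called. Snhg6 passed none of the 3 comparisons, with differences between -0.04 and 0.26. Snhg12 passed none of them without the block, and with it its METTL3 response was lower than its YTHDC1 response by -0.21 (SE 0.08, adjusted p 0.0289), with 42.8% of genes called.

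The rise of Dancr was concentrated in the reads of the short row, which at its inferred position spans the exons and the intron of Snora26. On the same inference, the other bases of the long row lie mainly in the first intron and the 3′ part of the span. The counts hold no read positions, so the reads outside the short row were taken as the long row's count minus the short row's. For the ZCCHC8 line these outside reads averaged 14.3 CPM in Ctrl (8.45 to 17.5, n = 6) and 18.6 CPM in dTAG libraries (12.2 to 27.8, n = 6), and the groups overlapped. Their log2 fold change was 0.37 (SE 0.12, adjusted p 0.0215), against 1.87 for the short row. The short row's share of the long row's reads was 56.2% to 69.5% in Ctrl and 78.3% to 88.3% in dTAG libraries. The difference of 20.0 percentage points had p = 0.00926 in a two-sided exact permutation test of the arms within each chase time, the smallest p that its 216 arrangements allow. For METTL3 cells the share was 72.6% ± 9.95 in Ctrl and 74.3% ± 7.51 in dTAG libraries (exact permutation p = 0.741), and in the YTHDC1 line it was 70.4% ± 9.71 and 77.3% ± 7.14 (p = 0.241, exact permutation). With the arms swapped within pairs of the same chase time and replicate, a test added after seeing the data, the share in the YTHDC1 line was higher in dTAG in 6 of 6 pairs, by 1.81 to 13.7 percentage points (two-sided exact permutation p = 0.0312, the smallest its 64 arrangements allow). By the same test the ZCCHC8 line also had 6 of 6 pairs higher (exact permutation p = 0.0312), by 13.4 to 32.1 points, and the METTL3 line 5 of 6 (exact permutation p = 0.406). In both permutation tests the libraries or pairs of a line are chase times within only 2 replicates and are not independent. The p-values of both tests therefore do not measure spread between replicates. In the METTL3 and YTHDC1 lines the share also differed between replicates, at 77.6% to 84.4% in replicate 1 and 56.6% to 71.4% in replicate 2. Reads from spliced Dancr, from the retained intron and from Snora26 or its precursors cannot be told apart within the short row.

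**Figure D3:**
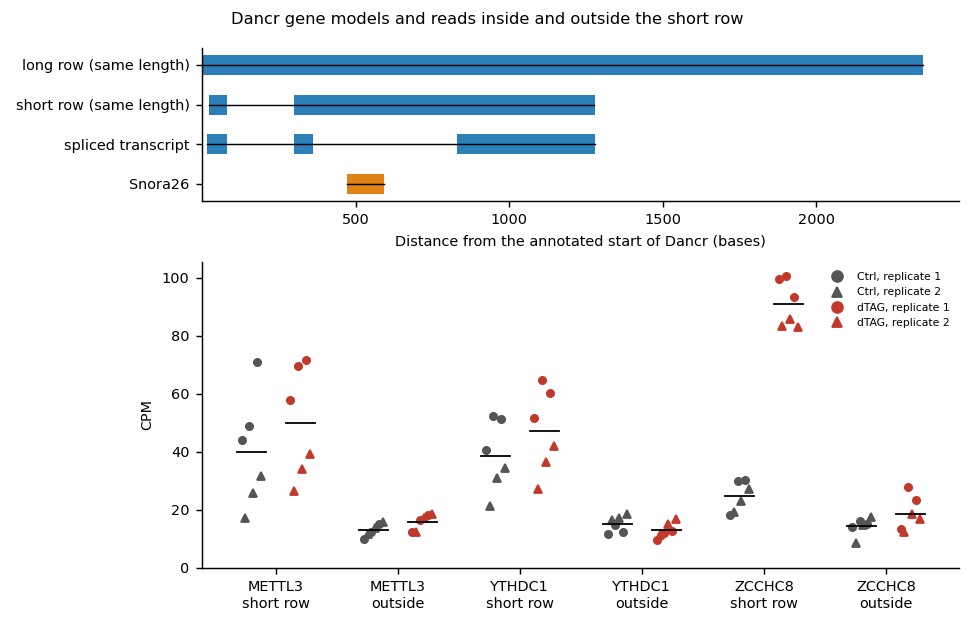
Top, Dancr gene models that match the long row, the short row and the spliced transcript, with Snora26, against distance from the annotated start in bases. Bottom, CPM of the short row and of long-row reads outside it for each library by line, with grey for Ctrl, red for dTAG, circles and triangles for replicates 1 and 2 and black lines for means. In the ZCCHC8 line the short row went from a mean of 24.6 to 90.9 CPM and the outside reads from 14.3 to 18.6 CPM.

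At the end of the pulse, nearly all Dancr RNA was labelled in Ctrl cells of the ZCCHC8 line and a smaller share after depletion. The new-to-total ratio of the long row at 0 min was 0.935 in Ctrl replicate 1 (90% posterior interval 0.886 to 0.964) and 0.890 in replicate 2 (0.837 to 0.928). In dTAG libraries it was 0.634 (0.605 to 0.662) and 0.642 (0.608 to 0.674), so the intervals of the arms did not overlap in either replicate. After 180 min the ratios had met, at 0.311 and 0.251 in Ctrl and 0.314 and 0.315 in dTAG libraries. The arm term over all times was -0.18 on the log2 scale (SE 0.09, limma adjusted p 0.345) and did not pass, with 1.34% of genes called. Neither did Snhg6 (-0.11, SE 0.09, adjusted p 0.608) nor Snhg12 (-0.12, SE 0.06, adjusted p 0.337) in this line. A lower ratio was not particular to Dancr among noncoding hosts. Outside the named symbols, Snhg11 passed in the same limma test (-0.26, SE 0.06, adjusted p 0.0427). Epb41l4aos (-0.26, SE 0.08, adjusted p 0.105), Snhg20 (-0.23, SE 0.06, adjusted p 0.0806) and Meg3 (-0.18, SE 0.05, adjusted p 0.0806) did not. At 0 min the ratio of Snhg6 was 0.820 and 0.859 in Ctrl and 0.756 and 0.874 in dTAG libraries, and that of Snhg12 was 0.876 and 0.885 in Ctrl and 0.854 and 0.839 in dTAG libraries, so neither had a gap of the size seen for Dancr. The T-to-C rate of Dancr reads at 0 min, in which no model of labelling enters, was 8.52% and 7.53% in Ctrl and 4.94% and 5.43% in dTAG libraries. For Snhg12 it was 8.85% and 7.79% in Ctrl and 6.97% and 7.67% in dTAG libraries. For Snhg6 it was 7.62% and 7.68% in Ctrl and 5.92% and 7.61% in dTAG libraries. In replicate 1 the rate was thus lower in dTAG for these hosts too, so the Dancr rates of that replicate are not free of a difference between libraries.

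The new-to-total ratio of Dancr fell less steeply without ZCCHC8, but this difference did not pass the correction over all genes. The slope of the log2 ratio was less steep by 0.23 per h (SE 0.06), the 6th highest of 7251 genes tested and 4th by unadjusted p (0.000739), with a limma adjusted p of 1. No gene was called in this test (0%), and 129 genes had an unadjusted p below 0.05. The apparent half-life of the label, fitted in each replicate, was 113 and 98.4 min in Ctrl and 178 and 176 min in dTAG libraries, a ratio of 1.57 in replicate 1 and 1.78 in replicate 2. From 0 to 180 min the ratio fell to 33.2% and 28.2% of its start in Ctrl and to 49.6% and 49.1% in dTAG cells. Labelled Dancr RNA itself, as CPM, fell by more similar amounts, to 47.1% and 45.5% of its start in Ctrl and to 51.3% in both dTAG replicates. Total Dancr CPM over the same time went to 142% and 161% of its start in Ctrl and to 103% and 104% in dTAG libraries, so the ratio fell further in Ctrl while the total rose there. The short row had fewer than 100 reads in 1 Ctrl library and was left out of the label tests of this line. With a minimum of 20 reads its slope differed by 0.19 per h (SE 0.05, adjusted p 1).

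**Figure D4:**
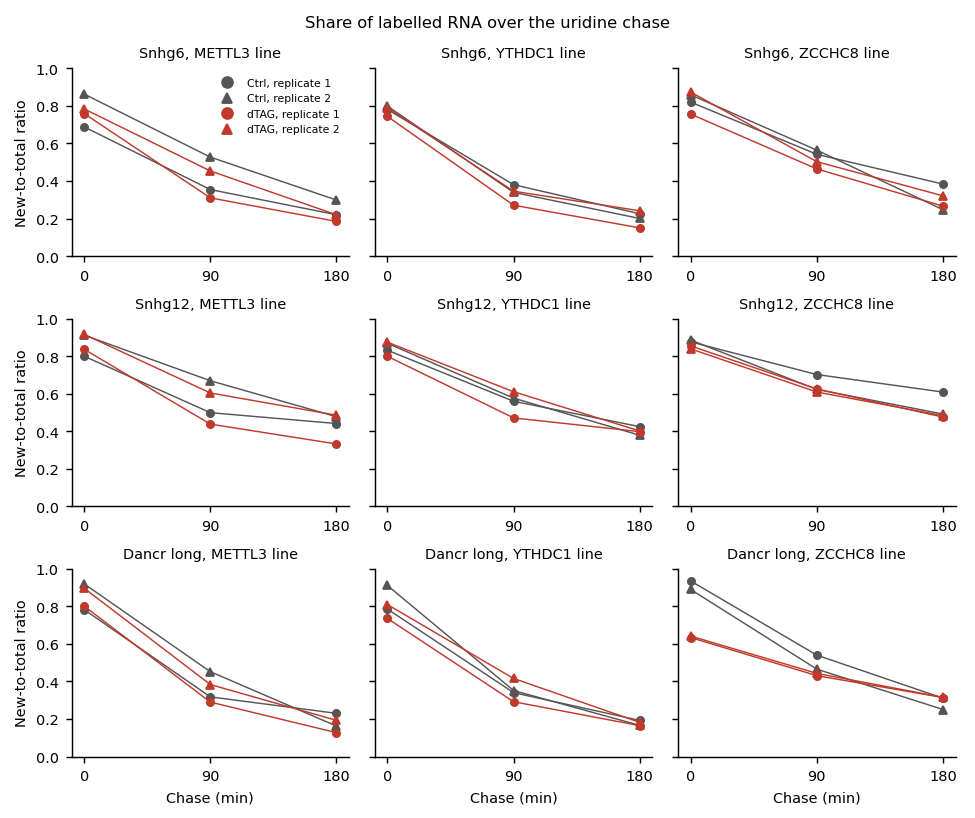
New-to-total ratio (y axis, 0 to 1) over the chase in min (x axis) for Snhg6, Snhg12 and the long Dancr row in each line, with grey for Ctrl, red for dTAG, circles for replicate 1 and triangles for replicate 2. Dancr starts at 0.935 and 0.890 in Ctrl and at 0.634 and 0.642 in dTAG cells of the ZCCHC8 line, and the arms meet near 0.3 at 180 min.

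Multiplying CPM by the ratio splits Dancr into labelled RNA and RNA made before the pulse. At 0 min in the ZCCHC8 line, labelled Dancr RNA was at 30.0 and 24.7 CPM in Ctrl and 71.4 and 61.3 CPM in dTAG libraries, 2.38 and 2.49 times as much. Unlabelled Dancr RNA was at 2.08 and 3.05 CPM in Ctrl and 41.3 and 34.3 CPM in dTAG libraries, 19.8 and 11.2 times as much. Both pools were larger after depletion, and the larger ratio was that of the unlabelled pool, whose Ctrl value rests on small remainders of 169 and 210 reads. The unlabelled pool in the METTL3 line was 1.20 and 1.73 times that of Ctrl and in the YTHDC1 line 1.45 and 2.19 times, with labelled RNA at 0.906 to 1.34 times in both lines. For Snhg12 in the ZCCHC8 line, labelled RNA was at 1.01 and 1.09 times and unlabelled RNA at 1.22 and 1.62 times the Ctrl level, and for Snhg6 these values were 1.17 and 1.07 and, for unlabelled RNA, 1.71 and 0.941. These splits are a description without a test.

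**Figure D5:**
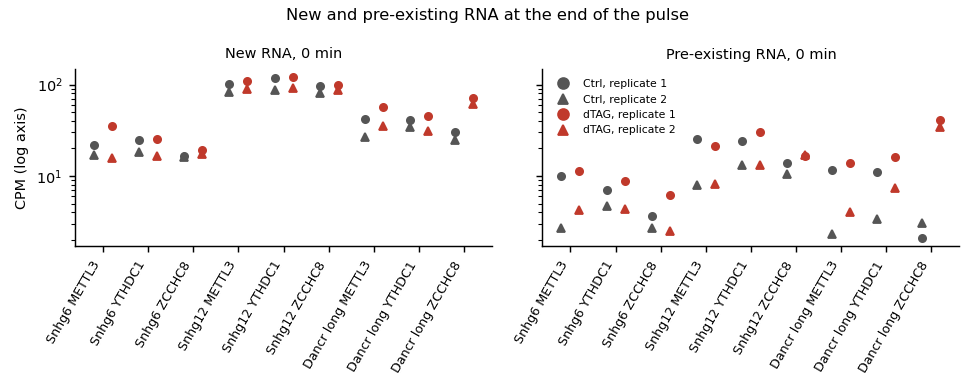
Labelled (new) and unlabelled (pre-existing) RNA at 0 min of chase in CPM (log y axis) for 3 host rows and 3 lines (x axis), with grey for Ctrl, red for dTAG, circles for replicate 1 and triangles for replicate 2. Unlabelled Dancr RNA in the ZCCHC8 line was at 2.08 and 3.05 CPM in Ctrl and 41.3 and 34.3 CPM in dTAG libraries.

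Dancr and Snhg6 were among the RNAs that lost label fastest, while Snhg12 was faster than the median gene but not among the fastest. Dancr lost label fastest of the 3. The genes compared had to meet the minimum of reads and ratio used for the label tests, which leaves out genes with lower ratios. In Ctrl cells of the METTL3 line the apparent half-life was 86.9 ± 21.2 min for the long Dancr row, 113 ± 5.68 min for Snhg6 and 201 ± 12.0 min for Snhg12 (SD, n = 2), against a median of 720 min over 8289 genes. Only 0.0844% of genes lost label faster than the long Dancr row, 2.80% faster than Snhg6 and 22% faster than Snhg12. In Ctrl cells of the YTHDC1 line the half-lives were 80.9 ± 10.9, 95.3 ± 7.26 and 168 ± 24.9 min, with 0.42%, 2.41% and 20.6% of genes faster. In the ZCCHC8 line they were 106 ± 10.5, 132 ± 45.3 and 277 ± 92.3 min, with 0.0965%, 0.759% and 16.7% of genes faster. In that line the median ratio over all genes went only from 0.518 to 0.515 over the chase in Ctrl libraries, so half-lives from the ratio are not on the same footing in the 3 lines. From T-to-C rates they were closer between lines, at 73.0, 68.7 and 72.3 min for the long Dancr row, 91.5, 82.9 and 77.3 min for Snhg6 and 143, 134 and 148 min for Snhg12. A half-life here joins decay with dilution by RNA made during the chase.

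No host passed the test for loss of label after depletion of METTL3 or YTHDC1. After METTL3 depletion the slopes differed by -0.12 per h for Snhg6 (SE 0.10), -0.08 for Snhg12 (SE 0.10) and -0.10 for the long Dancr row (SE 0.10), all with adjusted p of 0.976 or above, and 0.362% of genes were called. In the YTHDC1 line they differed by -0.04 (SE 0.10), 0.01 (SE 0.06) and 0.03 (SE 0.08), with adjusted p of 1, where limma called no gene (0%) and 173 genes had an unadjusted p below 0.05. The ratio itself was lower in dTAG cells of the METTL3 line by -0.18 for Snhg6 (SE 0.12, adjusted p 0.26), -0.11 for Snhg12 (SE 0.11, adjusted p 0.467) and -0.16 for the long Dancr row (SE 0.12, adjusted p 0.325) on the log2 scale. None of these passed, although 27.5% of genes did and the median gene stood at -0.15. In the YTHDC1 line the differences lay between -0.14 and 0.04, with 0.646% of genes called.

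Over the chase, with doxycycline present and 4sU gone, 1 of the 12 estimates for a row in a line passed without the block, that of Snhg6 in the ZCCHC8 line. In the ZCCHC8 line Snhg6 rose by 0.34 on the log2 scale (SE 0.10, adjusted p 0.00733) and the long Dancr row was 0.27 higher (SE 0.11, adjusted p 0.0522), while 60.5% of genes were called. Snhg6 was at 0.15 without replicate 2, and in the 6 Ctrl libraries alone it did not pass, at 0.41 (SE 0.16, adjusted p 0.0508). With the block Dancr passed as well (0.25, SE 0.08, adjusted p 0.0061), with 64.3% of genes called. In the 6 Ctrl libraries alone the long row rose by 0.61 (SE 0.13, adjusted p 0.00198) and the short row by 0.63 (SE 0.16, adjusted p 0.00465), where 46.1% of genes were called, while in dTAG libraries the long row was at 113 and 95.6 CPM at 0 min and 117 and 99.8 CPM at 180 min, and the short row at 99.5 and 83.3 CPM and then 93.3 and 83.0 CPM. For METTL3 cells, Snhg6, the long and the short Dancr rows were 0.58 (SE 0.38), 0.57 (SE 0.30) and 0.58 (SE 0.41) higher at 180 min, with adjusted p of 0.225 to 0.369 and 16.1% of genes called. With the block all 3 passed (0.58, 0.58 and 0.61, adjusted p 0.000431, 0.000119 and 0.000217), with 47.3% of genes called. In the YTHDC1 line the same rows were 0.35, 0.39 and 0.42 higher, with adjusted p of 0.113 to 0.278 and 41% of genes called, and with the block they passed at 0.35, 0.41 and 0.46 (adjusted p 0.000529, 2.82e-05 and 2.07e-05), with 67.2% called. All 3 estimates stayed positive in both lines with either replicate left out, in fits that rest on 1 replicate of the line. Snhg12 passed in no line, with 0.24, 0.06 and 0.06 in the METTL3, YTHDC1 and ZCCHC8 lines, and was at 0.26 in METTL3 cells without replicate 1.

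Other host genes outside the named symbols gave further values in the ZCCHC8 line. Of 14 other noncoding hosts 5 were listed and tested, and 4 rose and none fell with ZCCHC8 depletion, at a median log2 fold change of 0.51 against -0.0035 over all genes, of which 20.1% rose and 19.5% fell. Snhg20 rose by 1.17 (SE 0.07, adjusted p 6.62e-12), from 52.1 ± 8.71 to 117 ± 3.85 CPM. Snhg18 rose by 1.19 (SE 0.28, adjusted p 0.00141) at a level of only 0.759 ± 0.266 CPM in Ctrl libraries. Meg3, an imprinted noncoding RNA, rose by 0.51 (SE 0.06, adjusted p 2.68e-06) and Epb41l4aos by 0.37 (SE 0.10, adjusted p 0.00401), and Snhg11 had 0.14 (SE 0.08, adjusted p 0.175). Meg3 fell in the METTL3 line, by a log2 fold change of -1.03 (SE 0.25, adjusted p 0.0153), and the other 4 did not pass, where 20.1% of all genes were called. With the block, Snhg18, Epb41l4aos and Snhg20 passed as well in that line, as higher (0.78, 0.30 and 0.30, adjusted p 0.0396, 0.0263 and 0.0197). In the YTHDC1 line none of the 5 passed without the block, and with it Meg3 (-0.54, adjusted p 4.34e-07) and Snhg11 (-0.27, adjusted p 0.0115) were lower. In the ZCCHC8 line the block left 4 higher and none lower. Of all genes, the fit with the block called 45.9%, 48.5% and 27.3% in the ZCCHC8, METTL3 and YTHDC1 lines.

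Protein-coding hosts moved by smaller amounts. Of 31 such genes tested in the ZCCHC8 line, 16 rose and none fell with depletion (51.6%, against 39.6% of all genes called and 20.1% higher), with a median log2 fold change of 0.12. The smallest adjusted p values were those of Eif4a2 (0.41, SE 0.04, adjusted p 2.37e-08), an RNA helicase of translation initiation, Rack1 (0.29, SE 0.05, adjusted p 1.63e-05) and Rpl27a (0.25, SE 0.05, adjusted p 0.000101), both of the ribosome. Of the 31, 1 passed in the METTL3 line, Rpl7a with -0.33 (SE 0.10, adjusted p 0.0443), and none did in the YTHDC1 line, against 20.1% and 5.25% of all genes. With the block 20 rose and none fell in the ZCCHC8 line, 2 rose and 4 fell in the METTL3 line, and 1 rose and 6 fell in the YTHDC1 line. That fit called 45.9%, 48.5% and 27.3% of all genes in these lines. Over the chase, 16 of 31 were lower and 3 higher at 180 min in the ZCCHC8 line (61.3%, against 60.5% of all genes), among them Hspa9 (-0.43, SE 0.06, adjusted p 2.05e-06). Genes of snoRNP proteins and their assembly were called about as often as all genes in the ZCCHC8 line, 2 of 17 up and 5 down (41.2% against 39.6%). Pih1d1, of the R2TP assembly complex, fell there (-0.43, SE 0.07, adjusted p 3.29e-05) and in the METTL3 line (-0.93, SE 0.13, adjusted p 0.00102). Shq1, a chaperone of dyskerin, rose in the METTL3 line (0.84, SE 0.12, adjusted p 0.00117), where 1 of 17 rose and 3 fell (23.5%, against 20.1% of all genes). Of 14 genes of nonsense-mediated decay, 3 rose and 3 fell in the ZCCHC8 line, also near the share of all genes (42.9% against 39.6%), with Upf3b at -0.44 (SE 0.06, adjusted p 4.6e-06). In the METTL3 line 1 of them rose, Smg8 (0.70, SE 0.08, adjusted p 0.000285), or 7.14% against 20.1% of all genes. In the YTHDC1 line no gene of these 2 lists passed without the block, against 5.25% of all genes. With the block, 4, 2 and 5 of the snoRNP genes were higher and 5, 4 and 6 lower in the ZCCHC8, YTHDC1 and METTL3 lines, and 4, 1 and 2 of the decay genes were higher and 3, 3 and 4 lower. Of all genes, 45.9%, 27.3% and 48.5% were called with the block in these 3 lines.

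The genes most like the hosts in level were sought over the 36 libraries, as Pearson's r with the mean of Snhg6, Snhg12 and the long Dancr row on log2(CPM + 1) centred within each line. Of 9506 genes with at least 10 CPM, Eif4a2 had the highest r, 0.955, followed by Rbm4b (0.933), Eif5 (0.92), Tmem167 (0.894) and Rad1 (0.892). Among the hosts themselves r was 0.83 between Snhg6 and Snhg12, and 0.619 and 0.58 between the long Dancr row and each of them. These libraries share the chase, the arms and the difference between replicates, so the values describe this set of libraries alone.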

How the data were processed

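The authors discarded reads aligned to ribosomal RNA, aligned the others to mm10 with STAR 2.5.2b (unique, end-to-end, limited mismatches, which can remove strongly converted reads) and ran GRAND-SLAM, its version not given in the sources used here, on the 6 libraries of each line and replicate. Read counts were deposited raw, as whole numbers. The deposited new-to-total ratio is a fraction from 0 to 1 (posterior mode, with posterior mean and quantiles). The deposited conversion and T coverage values, a score kept to 4 significant digits, gave T-to-C rates. A further 180 value columns were not used. Columns name arm and chase, and the replicate was taken from the table.

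CPM use TMM factors per line. The arms were compared within each line by edgeR 4.0.16 (chase as a factor, filterByExpr, robust quasi-likelihood, Benjamini-Hochberg over all genes, threshold 0.05) and between lines by interaction terms over 36 libraries. The SE is the log2 fold change over the square root of F. For log2 ratios limma 3.58.1 was used on genes whose 12 libraries in a line all held 100 or more reads and a ratio of 0.02 or more. Half-lives were fitted log-linearly per replicate, and with 3 equally spaced times depend on the ratios at 0 and 180 min. Alternatives were DESeq2 1.42.0, RLE factors, no filter, summed chase libraries, Ctrl libraries alone, a replicate block, each replicate left out, the posterior mean, T-to-C rates and a minimum of 20 reads. Same-numbered libraries of the 2 arms deviated together across genes, with r of 0.587 to 0.755 (METTL3), 0.651 to 0.712 (YTHDC1) and 0.175 to 0.187 (ZCCHC8), so the numbers pair the libraries. Replicates differed by more than sampling noise (chi-square per degree of freedom 2.45 to 77.9). Per the study's reporting notes, replicates of a single clone are independent repeats, and the wells of a replicate come from a common batch of cells, which is also a source for the pairing. Posterior intervals cover counting error only. The tests were tried on simulated data. Versions were matplotlib 3.10.9, scipy 1.17.1, pandas 2.3.3, numpy 2.4.6, Python 3.11.15 and R 4.3.3.

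The hosts and gene lists were chosen with earlier results of these data known. All listed hosts are named, and genes of other lists are named from the 3 with the smallest adjusted p per line and test. Epb41l4aos and Snhg11 in the ZCCHC8 line fall outside that rule and were added after their values were seen. Genes that overlap a host are named, and the genes most alike are the 5 with the highest r.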

Additional observations from a re-analysis of the deposited data

Results flagged for a closer look

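The Dancr response differed between lines by a test of the difference itself. The long row's log2 fold change in the ZCCHC8 line exceeded that in the YTHDC1 line by 1.29 (edgeR adjusted p 0.00136) and that in the METTL3 line by 1.15 (adjusted p 0.00231). For the short row these differences were 1.55 (adjusted p 0.00541) and 1.52 (adjusted p 0.00372). All 4 also passed with the replicate as a block, and kept their direction without either replicate. The summed level of feeder markers, 48.8 to 64.3 CPM in Ctrl and 51.1 to 59.0 CPM in dTAG libraries of the ZCCHC8 line, did not separate the arms. Depth was lowest in the ZCCHC8 line, and its part in the difference between lines was not tested. Groups of line, arm and chase hold 2 libraries each, too few to look for single libraries far from their group.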

How the results depend on the processing

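Of 354 values of the host rows under alternatives, 290 kept their direction and their side of the threshold, 22 changed sign without passing in either fit, 40 passed only under the alternative and 2 passed only in the main fit; none reversed. The calls of both Dancr rows in the ZCCHC8 line held under each alternative, with the long row at 1.45 to 1.53 without a replicate and its reads outside the short row at 0.37. The number of host rows called of 4 moved as follows, the cause not being tested. With the replicate block it went from 0 to 2 in the METTL3 line and from 0 to 2 in the YTHDC1 line for dTAG against Ctrl, from 0 to 3 in each of these lines and from 1 to 2 in the ZCCHC8 line over the chase, and from 0 to 1 for METTL3 minus YTHDC1; the block added Snhg12 in the ZCCHC8 line, giving 3 rows, and changed no other call of a host row. The totals over the 354 values include fits without a replicate. Such fits rest on 1 replicate of the line, so counts of rows passing are not given for them. Over the chase in the ZCCHC8 line, RLE factors, DESeq2 and Ctrl libraries alone each gave 2 rows. Replacing the long Dancr row by its reads outside the short row, chosen after seeing the data, gave 2 rows there and 1 in the METTL3 line. Median Ctrl half-lives of the rows were 106, 91.8 and 132 min in the METTL3, YTHDC1 and ZCCHC8 lines, and 85.7, 76.7 and 77.3 min from T-to-C rates. The medians of the ZCCHC8 line cover 3 rows, without the short Dancr row, and those of the other lines 4, so they are not directly comparable. Depth limits the smallest row, the short Dancr row, to 95 reads in 1 ZCCHC8 Ctrl library.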
